A study of Mus musculus with 23 samples.

Results

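Genes of the 2-cell-like state are the subject here: 10 genes, out of 29032 gene symbols in the deposited expression table, that fall into 5 families. They are Zscan4c and Zscan4d, Tcstv1 and Tcstv3, Tdpoz4, Cphx1, Cphx2 and Cphx3, and Pramef25 with BC080695. All 10 were found by symbol, and the entry with the highest mean was kept where a symbol had several; BC080695 had a further entry that was at 0 in every library. The genes were chosen by their FPKM values in these libraries, foremost their difference between the EB genotypes under activin, so that difference is given as a description, with no test.

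RNA was sequenced in 10 libraries, 2 in each of 5 groups. Embryoid bodies (EBs), the clusters that embryonic stem cells (ESCs) form without leukaemia inhibitory factor, were collected at day 2.5 in 15% serum. The groups were Trim33-null EBs given activin A (50 ng/ml), Trim33-null EBs given SB431542, wild-type (WT) EBs given activin A, WT EBs given SB431542, and ESCs of the line E14 given activin A. Activin A switches on the receptors that Nodal uses, SB431542 blocks their kinase, and TRIM33 is a chromatin reader that joins activated SMAD proteins. Activin lasted 2 h. The labels give SB431542 as 10 micromolar in one place and the same figure in millimolar in another, and its duration as 1 h or 2 h. Both EB genotypes have a C57Bl/6J background, and E14 is another line, so cell state and line change together between EBs and ESCs. Sample titles number the Trim33-null libraries 1 and 4 and do not say whether these are clones, and ESC titles include LKO although wild type is the listed genotype. Libraries are called I and II here after the table's columns, and the ATAC-seq and ChIP-seq samples of the series were not analysed here.

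A small, changing fraction of cells in mouse ESC cultures passes through a state that resembles the embryo at the 2-cell stage. In it, genes of multi-copy families that are otherwise silent after early cleavage are transcribed, many of them together with endogenous retroviruses. ZSCAN4 proteins are zinc finger proteins known for their part in telomere upkeep in this state, and the transcription factor DUX and the proteins DPPA2 and DPPA4 are known as activators. In bulk RNA, more cells in such a state and more RNA per cell cannot be told apart.

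Trim33 itself was at 2.23 to 2.83 FPKM (a fragment count corrected for the length of the gene and the size of the library) in the 4 Trim33-null libraries and at 10.1 to 11.4 FPKM in the 4 WT EB libraries, and at 6.25 and 6.6 FPKM in the ESCs. Summed FPKM over all genes ran from 236708 to 251582 per library. The table holds no counts, and the depth estimated from the lowest values differed about as 0.293 to 1 between libraries, so values far under 1 FPKM carry large counting error. The labels do not state separate cultures for the libraries within a group, and p-values therefore reflect the spread among these samples alone, which may be technical.

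All 10 members were higher in both Trim33-null EB libraries than in both WT EB libraries under SB431542, where 27.4% of all 11317 genes tested lay higher without overlap. The groups also did not overlap when all 4 Trim33-null EB libraries were set against all 4 WT EB libraries, as for 15.6% of genes. Those libraries include the activin EB libraries, whose genotype difference was known when the members were chosen, so this is a description. As log2(FPKM + 1), a scale that shrinks the differences of low genes, 8 of the 10 rose in Trim33-null EBs under SB431542 (limma, Benjamini-Hochberg adjusted p under 0.05), against 4.08% of all genes. Zscan4c and Zscan4d were not called. Of the 10, Tcstv1, Tcstv3, Tdpoz4, Cphx1 and Cphx2 reached 1 FPKM in no WT EB library and Cphx3 in 1, where the filter on low values needs 2. All of these passed the filter only through their Trim33-null libraries, so the count is a description of the list. The choice of members drew on FPKM values of these libraries, and the fit pools the SB431542 with the activin EB libraries. The calls and adjusted p values of members under SB431542, here and below, are therefore not independent of that choice. The members' median log2 difference was 1.38, and that of all genes was -0.02. The calls rest on the WT libraries: without WT SB431542 I, 1 of 10 members and 14 of all genes were called, and without WT SB431542 II, 0 of 10 members and 3 of all genes. Every member stayed higher in Trim33-null EBs in all 16 alternative fits, with log2 differences of 0.89 to 3.67. Since the groups did not overlap, leaving libraries out could not reverse a sign. The range includes a fit with a pseudocount of 0.1, which is another scale.

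**Figure D1:**
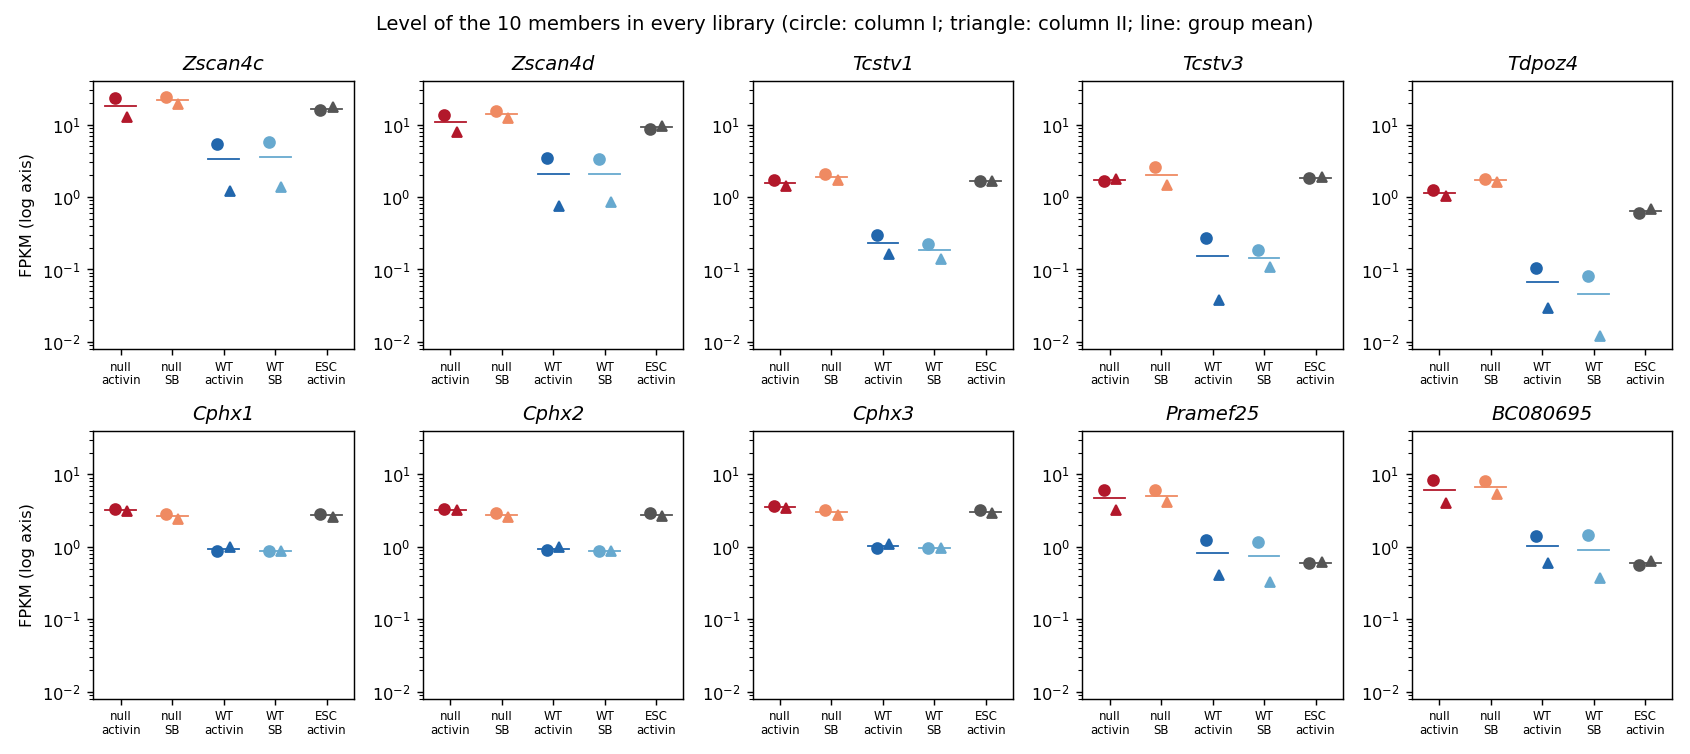
FPKM (log axis) of each member in the 2 libraries of each of the 5 groups, with Trim33-null EBs (null) left of WT EBs and E14 ESCs last; circles are column I, triangles column II and lines group means, and SB stands for SB431542. Each member is higher in the 4 Trim33-null libraries than in the 4 WT EB libraries; the ESCs sit near the Trim33-null EBs for Zscan4, Tcstv and Cphx genes and near WT EBs for Pramef25 and BC080695.

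The Zscan4 genes were the members with the highest mean level in each of the 5 groups. Zscan4c had 24.4 and 19.2 FPKM in Trim33-null EBs under SB431542, against 5.71 and 1.38 FPKM in WT EBs under SB431542. Zscan4d had 15.4 and 12.5 FPKM in Trim33-null EBs and 3.33 and 0.842 FPKM in WT EBs under the same inhibitor. In both genes WT library I was several times above WT library II, and still under the lower Trim33-null library. The log2 differences were 2.5 ± 0.65 (SE) for Zscan4c and 2.4 ± 0.56 for Zscan4d, the largest of the 10 members but with the widest errors, and their adjusted p values were 0.0686 and 0.0528 (limma; 8.6e-05 to 0.292 and 8.6e-05 to 0.242 over the alternatives). Under activin Zscan4c was at 23.4 and 12.9 FPKM in Trim33-null EBs and at 5.46 and 1.22 FPKM in WT EBs, a ratio of means of 5.43. Zscan4d under activin was at 13.8 and 7.89 FPKM in Trim33-null EBs and at 3.41 and 0.761 FPKM in WT EBs, a ratio of 5.19. The WT libraries of column I set the size of these ratios: for the summed pair the ratio was 5.34 under activin and 14.6 without WT activin I, and 6.34 under SB431542 and 16.1 without WT SB431542 I.

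The Zscan4 copies cannot be separated with confidence. In all 10 libraries Zscan4d stood at 0.557 to 0.65 of Zscan4c, Zscan4f at 0.969 to 1.07 of it and Zscan4b at 0.619 to 0.791 of it, although their levels changed many-fold between libraries. Zscan4f and Zscan4b, which belong to the same gene cluster and are not among the 10, had log2 differences of 2.51 ± 0.65 and 2.26 ± 0.61 under SB431542 (limma, adjusted p = 0.0672 and 0.0726). The promoter windows of the pair, 300 bases around the annotated start, are printed to show how alike the copies are (RefSeq, build GRCm38.p6, 5′ to 3′, capitals mark TATAAA). The build named in the submitters' processing notes is mm9, so these coordinates are not those of the expression table.
Zscan4c, chr7:11005495-11005794, plus strand: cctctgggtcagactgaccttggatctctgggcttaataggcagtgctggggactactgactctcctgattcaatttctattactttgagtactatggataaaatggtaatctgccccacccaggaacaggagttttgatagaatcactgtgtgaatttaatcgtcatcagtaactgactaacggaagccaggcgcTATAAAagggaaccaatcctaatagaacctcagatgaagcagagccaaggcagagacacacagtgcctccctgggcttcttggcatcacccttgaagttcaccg
Zscan4d, chr7:11166099-11166398, minus strand: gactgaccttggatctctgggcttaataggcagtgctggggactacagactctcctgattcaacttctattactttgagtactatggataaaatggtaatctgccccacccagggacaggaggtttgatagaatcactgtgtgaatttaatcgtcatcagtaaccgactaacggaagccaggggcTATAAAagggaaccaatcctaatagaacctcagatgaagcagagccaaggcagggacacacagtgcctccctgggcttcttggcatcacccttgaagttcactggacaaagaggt
Over the 289 bases that align without gaps, 281 were identical (97.2%), and Zscan4f matched Zscan4c at 275 of 277 bases. The TATAAA began 54 bases before the annotated start in Zscan4c and 65 bases before it in Zscan4d and the 2 windows align with a shift of 11 bases.

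Tcstv1 and Tcstv3, whose name comes from a group of genes of variable expression in the 2-cell stage, were lower in level, with larger ratios between the genotypes. Tcstv1 had 2.1 and 1.72 FPKM in Trim33-null EBs and 0.227 and 0.141 FPKM in WT EBs under SB431542. Tcstv3 had 2.62 and 1.46 FPKM in Trim33-null EBs and 0.183 and 0.107 FPKM in WT EBs under SB431542. Their ratios of means were 10.4 and 14.1, against 6.15 for Zscan4c, and their log2 differences were 1.29 ± 0.11 and 1.38 ± 0.19 (SE; limma adjusted p = 0.00572 and 0.0143). Under activin Tcstv1 had 1.71 and 1.43 FPKM in Trim33-null EBs and 0.295 and 0.166 FPKM in WT EBs, and Tcstv3 had 1.65 and 1.79 FPKM in Trim33-null EBs and 0.271 and 0.0379 FPKM in WT EBs. In neither gene did the genotypes overlap. Tcstv3 stood at 0.228 to 1.25 of Tcstv1, with the lowest ratio in WT activin II, where both were near the lower end of what these libraries resolve.

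All 6 genes tested that lie between Tcstv1 and Tcstv3 in the RefSeq order, named by position and after the tests had been run, were called higher in Trim33-null EBs under SB431542: Gm20767, Gm21818, B020031M17Rik, AF067061, BC147527 and Gm21761, with log2 differences of 1.02 to 2.22 (limma, adjusted p of 0.0097 to 0.0239). Gm20767 was at 6.66 and 5.61 FPKM in Trim33-null EBs and 0.849 and 0.254 FPKM in WT EBs under SB431542. AF067061 was at 2.38 and 2.1 FPKM in Trim33-null EBs and at 0.324 and 0.0873 FPKM in WT EBs under SB431542. Of the 6, 5 reached 1 FPKM in no WT EB library and Gm20767 in 1, so each passed the filter only through its Trim33-null libraries, and the count is a description. Over all genes 4.08% were called higher. Against ESCs these genes differed among themselves: Gm21761 had 1.63 and 1.15 FPKM in Trim33-null EBs under activin and 6.49 and 6.37 FPKM in ESCs, and BC147527 had 1.18 and 0.724 FPKM in Trim33-null EBs under activin and 0.295 and 0.396 FPKM in ESCs. The 3 tested genes next to the interval on the side of Tcstv1 were not called. Members of such a cluster can share reads, so the 6 are not 6 separate measurements.

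Tdpoz4, a gene of the family with a TRAF and a POZ domain, showed the largest ratio. It had 1.8 and 1.62 FPKM in Trim33-null EBs and 0.0805 and 0.0122 FPKM in WT EBs under SB431542, a ratio of means of 37. That ratio rests on WT values near 0: the log2(FPKM + 1) difference was 1.37 ± 0.09 (SE; limma adjusted p = 0.0042), and without WT SB431542 I the ratio became 140. Under activin it had 1.24 and 1.02 FPKM in Trim33-null EBs and 0.106 and 0.029 FPKM in WT EBs, a ratio of 16.7. Of 10 other genes of its list in the table, only Spop and Spopl passed the filter, and neither was called. Spop, which encodes a ubiquitin ligase adaptor, had a log2 difference of -0.14 ± 0.08 and its paralog Spopl one of 0.12 ± 0.10 (limma, adjusted p = 0.269 and 0.455). The other 8, all under 1 FPKM and so not tested, were each higher in both Trim33-null libraries than in both WT libraries under SB431542. The share of all genes at such levels that did so was not computed, and the copies may share reads. Some lay near 0, as Gm9117 with 0.0829 and 0.0946 FPKM in Trim33-null EBs and 0.0193 and 0.0117 FPKM in WT EBs. Tdpoz3 had 0.513 and 0.376 FPKM in Trim33-null EBs and 0.0204 and 0.0124 FPKM in WT EBs, Tdpoz5 had 0.586 and 0.682 FPKM in Trim33-null EBs and 0.0766 and 0.02 FPKM in WT EBs, and Gm10696 had 0.712 and 0.728 FPKM in Trim33-null EBs and 0.125 and 0.0585 FPKM in WT EBs.

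Cphx1, Cphx2 and Cphx3, homeobox genes transcribed in oocytes and early embryos, had the smallest log2 differences of the 10 members under SB431542. Cphx1 had 2.87 and 2.45 FPKM in Trim33-null EBs and 0.872 and 0.866 FPKM in WT EBs under SB431542, and 3.29 and 3.11 FPKM in Trim33-null EBs and 0.88 and 0.986 FPKM in WT EBs under activin. Its log2 difference under SB431542 was 0.97 ± 0.08 (SE; limma adjusted p = 0.00531), a ratio of means of 3.07. Cphx2 and Cphx3 differed by 0.99 ± 0.07 and 1.02 ± 0.07 (limma, both adjusted p = 0.00443). The 3 genes are not 3 measurements, since Cphx2 stood at 1 to 1.04 of Cphx1 and Cphx3 at 1.09 to 1.13 of it in all 10 libraries. Their promoter windows are the same sequence: Cphx2 and Cphx3 matched at 300 of 300 bases, and both matched Cphx1 at 296 of 296 bases once shifted by 4. The window of Cphx1 stands for all of them.
Cphx1, chr14:25942294-25942593, plus strand: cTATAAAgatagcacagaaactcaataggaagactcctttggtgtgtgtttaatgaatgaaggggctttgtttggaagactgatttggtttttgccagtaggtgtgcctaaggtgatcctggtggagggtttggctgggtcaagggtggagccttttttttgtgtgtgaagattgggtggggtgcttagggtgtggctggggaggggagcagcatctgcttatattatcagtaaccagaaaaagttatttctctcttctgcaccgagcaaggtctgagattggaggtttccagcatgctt
Here the TATAAA lies 249 bases before the annotated start, at the far edge of the window. Between the Cphx copies, 2 of 5 tested genes were called higher under SB431542, against 4.08% of all genes. They were the double homeobox genes Duxbl1 (0.57) and Duxbl2 (0.59), which stood at near-equal levels and may share reads (limma, adjusted p = 0.0135 and 0.0127). Duxbl1 was at 8.77 and 8.84 FPKM in Trim33-null EBs and 5.37 and 5.83 FPKM in WT EBs under SB431542, against 1.46 and 1.28 FPKM in ESCs.

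Pramef25, a gene of the PRAME family of leucine-rich repeat proteins, and BC080695, grouped with it here although the reference tables give it no family, came next to Zscan4 in mean level in Trim33-null EBs. Pramef25 had 6 and 4.1 FPKM in Trim33-null EBs and 1.15 and 0.327 FPKM in WT EBs under SB431542, a log2 difference of 1.82 ± 0.37 (SE; limma adjusted p = 0.0378). BC080695 had 8.17 and 5.32 FPKM in Trim33-null EBs and 1.44 and 0.375 FPKM in WT EBs under SB431542, a difference of 2.06 ± 0.41 (adjusted p = 0.0366). Under activin Pramef25 had 6.08 and 3.23 FPKM in Trim33-null EBs and 1.23 and 0.406 FPKM in WT EBs, and BC080695 had 8.28 and 4.04 FPKM in Trim33-null EBs and 1.41 and 0.604 FPKM in WT EBs. In each treatment the lower Trim33-null library was above the higher WT library. BC080695 stood at 0.95 to 1.49 of Pramef25, a wider range than between the Cphx or Zscan4 copies. These 2 calls sit close to the threshold, and 5 and 6 of the 16 alternatives kept Pramef25 and BC080695 under it.

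**Figure D2:**
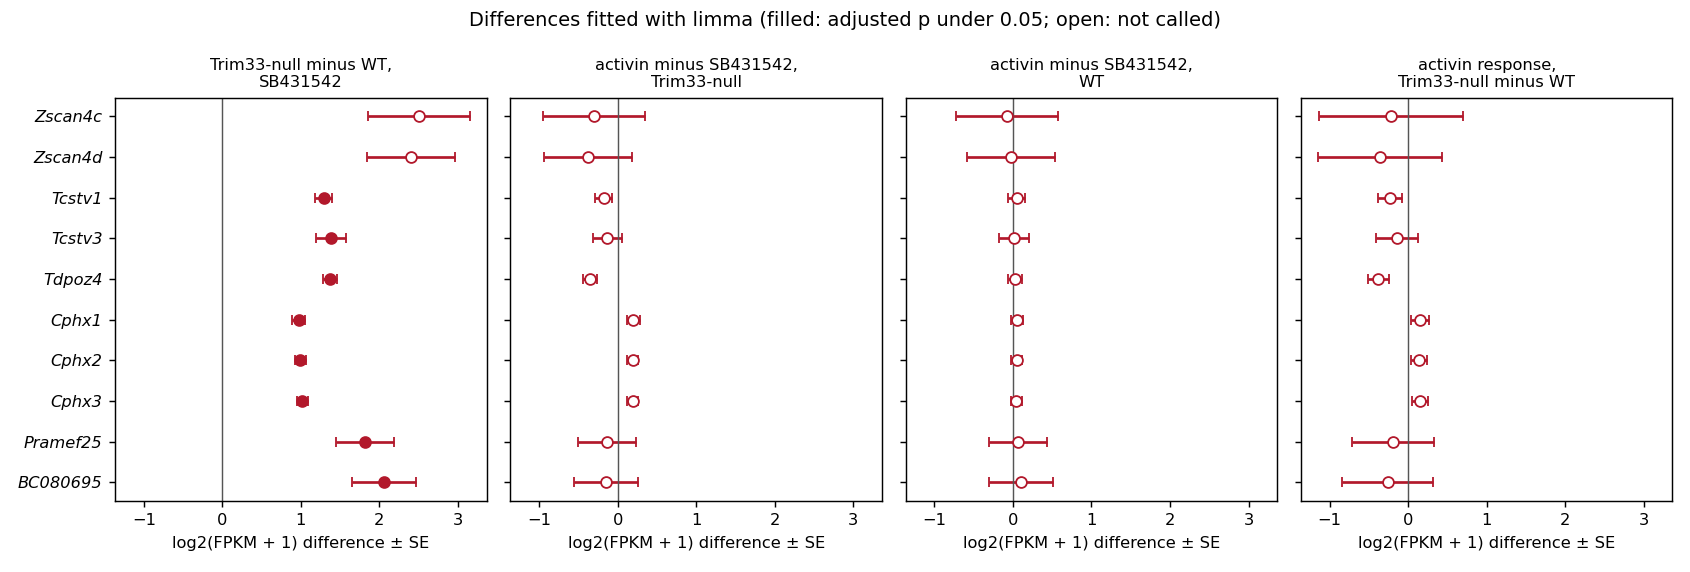
Differences on the log2(FPKM + 1) scale with their SE for the 10 members (rows) in the genotype comparison under SB431542 and in 3 comparisons of treatment, all fitted with limma to the 8 EB libraries. Filled points had an adjusted p under 0.05, which 8 members reached in the genotype comparison and none in activin against SB431542 within either genotype; the difference in response is a description. The widest bars belong to Zscan4c and Zscan4d.

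Promoter windows were found in RefSeq for 7 of the 10 members, not for Tcstv1, Tcstv3 and BC080695; Pramef25 is listed there as Pramel16. The windows of Tdpoz4 and Pramef25 are shown because, unlike those above, they hold no TATAAA on either strand.
Tdpoz4, chr3:93796148-93796447, plus strand: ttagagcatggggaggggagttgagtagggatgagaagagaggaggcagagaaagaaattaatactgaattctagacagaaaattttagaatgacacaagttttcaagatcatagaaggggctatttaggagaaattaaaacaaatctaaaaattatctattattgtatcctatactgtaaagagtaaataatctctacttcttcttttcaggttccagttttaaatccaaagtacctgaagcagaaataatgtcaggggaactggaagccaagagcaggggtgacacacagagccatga
Pramef25, chr4:143950967-143951266, minus strand: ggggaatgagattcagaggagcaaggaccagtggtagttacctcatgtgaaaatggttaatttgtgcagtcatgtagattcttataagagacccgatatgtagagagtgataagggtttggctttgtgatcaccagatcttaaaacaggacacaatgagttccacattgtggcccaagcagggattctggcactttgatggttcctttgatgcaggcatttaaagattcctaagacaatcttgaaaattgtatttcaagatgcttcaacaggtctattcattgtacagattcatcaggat
TATAAA was found in 5 of the 7 windows and in 13.6% of all 32851 windows, but the 5 come from only 2 families of near-identical copies. The letters TGCACAC, a motif bound by ZSCAN4, were in 0 of 7 windows and in 4.4% of all, and the DUX motif was in 0 of 7 and in 0.0335% of all, both strands searched. The windows hold few CpG pairs, 0 in Tdpoz4, 1 in Pramef25 and in each Cphx gene, 3 in Zscan4d and 4 in Zscan4c, where the median over all windows was 7. A match, or none, describes the letters of these 300 bases and says nothing of binding.

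Activin against SB431542 asks whether the members follow Nodal-type signalling. None of the 10 was called by limma in Trim33-null EBs, where 0.115% of 11317 genes were called, nor in WT EBs, where 0.221% were. At an unadjusted p under 0.05 there were 4 members in Trim33-null EBs, against 2.09% of all genes, and 0 in WT EBs, against 2.64%; 3 of the 4 were the Cphx copies, which are not separate measurements. These comparisons share their activin libraries with the genotype difference known when the members were picked. Zscan4c was at 23.4 and 12.9 FPKM under activin and 24.4 and 19.2 FPKM under SB431542 in Trim33-null EBs, which overlap, and at 5.46 and 1.22 FPKM under activin and 5.71 and 1.38 FPKM under SB431542 in WT EBs, which overlap too. The members' median log2 difference was -0.14 in Trim33-null EBs and 0.04 in WT EBs, and with 1 library left out it ran from -0.38 to 0.16 and from -0.08 to 0.14. Tdpoz4 in Trim33-null EBs had the smallest p, with a log2 difference of -0.35 ± 0.09 (SE; limma unadjusted p = 0.00752, adjusted p = 0.967) and no overlap between treatments. The Cphx genes lay the other way, with 3.29 and 3.11 FPKM for Cphx1 under activin and 2.87 and 2.45 FPKM under SB431542 in Trim33-null EBs, and a difference of 0.20 ± 0.08 (unadjusted p = 0.0388, adjusted p = 1). Neither passed the adjustment over all genes.

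The activin response, taken as Trim33-null minus WT, was called by limma for none of the 11317 genes (0% called; 24 genes had an unadjusted p under 0.05). For the members it contains the genotype difference under activin by which they were chosen, so their values are a description, with no test. The median difference in response was -0.21 over the members, -0.40 to 0.17 with 1 library left out, and -0.02 over all genes. Its SE was 0.92 for Zscan4c and 0.11 for Cphx1. For Tdpoz4 it was -0.38 ± 0.13 (SE).

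In WT EBs the 7 members outside the Cphx genes were higher in column I than in column II under both treatments, as were 21.3% of all genes tested. Zscan4c was 4.48 times as high in library I as in II under activin and 4.13 times under SB431542, Pramef25 was 3.02 and 3.51 times as high, and Tdpoz4 3.67 and 6.58 times. Summed over both treatments, 6 of 10 members were at least 2 times as high in WT column I as in column II, and 0.716% of all tested genes were. Cphx1 was at 0.892 times under activin and 1.01 times under SB431542. In Trim33-null EBs no member differed between the columns by 1 or more on the log2(FPKM + 1) scale, where 1.06% of all genes did under activin and 1.24% under SB431542. On that same scale 2 members differed so in WT EBs under each treatment, against 0.159% and 0.168% of all genes. As ratios of FPKM in Trim33-null EBs, Zscan4c was 1.81 and 1.27 times as high in I as in II, BC080695 2.05 and 1.53 times, and Cphx1 1.06 and 1.17 times. In ESCs the ratios lay between 0.864 for Tdpoz4 and 1.11 for Cphx1. Without WT column I the ratio of Trim33-null to WT EBs under activin moved to 16.1 for summed Tcstv genes, against 8.54 with it, to 39 for Tdpoz4, against 16.7, and to 10.7 for Pramef25 with BC080695, against 5.93. Whether a column stands for a culture, a clone or a run is not stated in the labels.

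**Figure D3:**
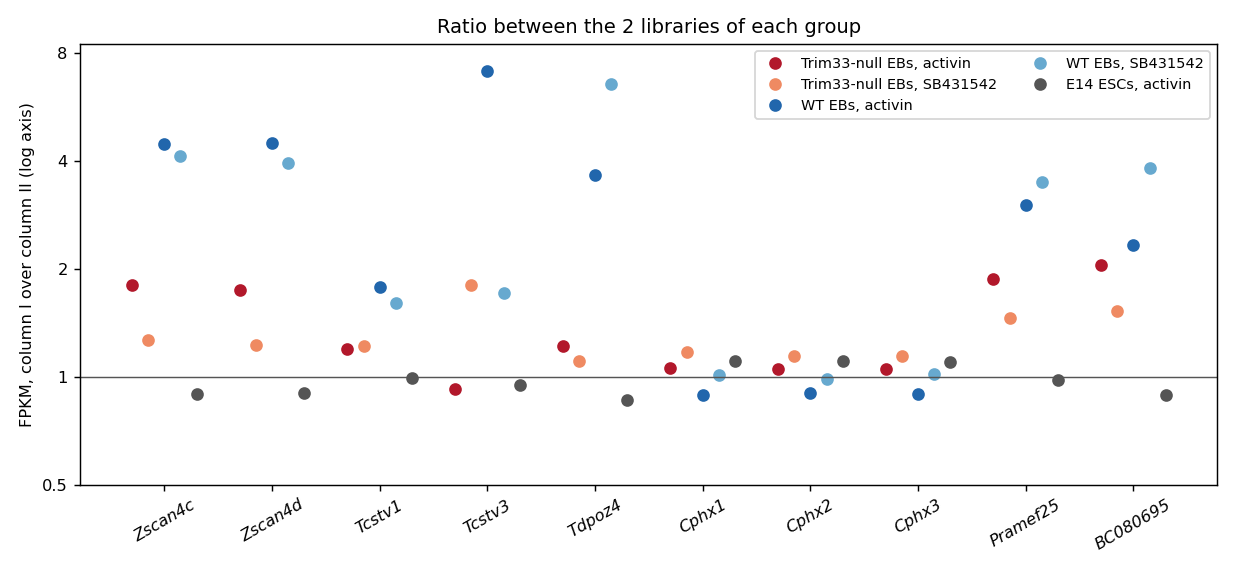
FPKM in column I over column II (log axis) of the 2 libraries of each group, for each member; the line marks equal levels. In WT EBs (blue) the ratio lies between 1.61 and 7.15 for every member outside the Cphx genes, the Cphx genes lie near 1 in all groups, and the ESCs (grey) lie near 1 throughout.

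Some relatives and many other genes of the state also differed between the WT columns. Zscan4b and Zscan4f were 4.18 times as high in column I, and of 22 other tested genes of the 2-cell-like list 18 were higher in column I in both treatments, with a median ratio of 1.74 and a range of 0.815 to 5.13 (0.984 was the median over all tested genes). Of 8 tested PRAME relatives 5 were higher in column I in both treatments, with ratios of 0.869 to 3.02, and Spop and Spopl were at 0.964 and 0.992. Gm4340 had 64.5 and 54.3 FPKM in Trim33-null EBs and 11.9 and 2.23 FPKM in WT EBs under SB431542. Usp17lb, of a family of deubiquitinase genes, had 3.14 and 1.81 FPKM in Trim33-null EBs and 0.466 and 0.0916 FPKM in WT EBs.

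Levels in E14 ESCs divided the families into 3 patterns. ESCs stood above both WT EB libraries under activin in 8 of 10 members, as in 38.4% of 11661 genes tested with the ESCs. The summed Zscan4 level was 29 ± 11.6 FPKM in Trim33-null EBs, 5.42 ± 4.87 FPKM in WT EBs and 25.8 ± 1.92 FPKM in ESCs under activin (SD, n = 2). Tcstv genes summed to 3.29 ± 0.109 FPKM in Trim33-null EBs, 0.385 ± 0.256 FPKM in WT EBs and 3.52 ± 0.0752 FPKM in ESCs, and Cphx genes to 10 ± 0.351 FPKM in Trim33-null EBs, 2.9 ± 0.221 FPKM in WT EBs and 8.55 ± 0.624 FPKM in ESCs. For these 3 families the Trim33-null EBs were at 1.12, 0.933 and 1.17 of the ESC level and WT EBs at 0.21, 0.109 and 0.339 of it. The first of these ratios is within the spread of the Trim33-null libraries, whose Zscan4 sums of 37.2 and 20.8 FPKM lay on both sides of the ESC sums of 24.5 and 27.2 FPKM; the Tcstv sums of 3.37 and 3.21 FPKM lay just under the ESC sums of 3.47 and 3.58 FPKM, and the Cphx sums of 10.3 and 9.75 FPKM just above the ESC sums of 8.99 and 8.1 FPKM.

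Tdpoz4 was intermediate in ESCs, with 1.24 and 1.02 FPKM in Trim33-null EBs, 0.106 and 0.029 FPKM in WT EBs and 0.596 and 0.69 FPKM in ESCs. Pramef25 and BC080695 were low in ESCs, with 0.594 and 0.606 FPKM and 0.564 and 0.634 FPKM. Their sum was 10.8 ± 5.01 FPKM in Trim33-null EBs under activin, 1.82 ± 1.15 FPKM in WT EBs and 1.2 ± 0.0584 FPKM in ESCs, so that Trim33-null EBs were at 9.02 and WT EBs at 1.52 of the ESC level. The ESC sums of 1.16 and 1.24 FPKM lay between the WT EB sums of 2.64 and 1.01 FPKM. In order of level, Trim33-null EBs and ESCs overlapped above WT EBs for Zscan4, Cphx ran Trim33-null EBs, ESCs, WT EBs, Tcstv ran ESCs, Trim33-null EBs, WT EBs, and for Pramef25 with BC080695 the WT EBs and ESCs overlapped under the Trim33-null EBs. No test was made here, since state and line change together.

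**Figure D4:**
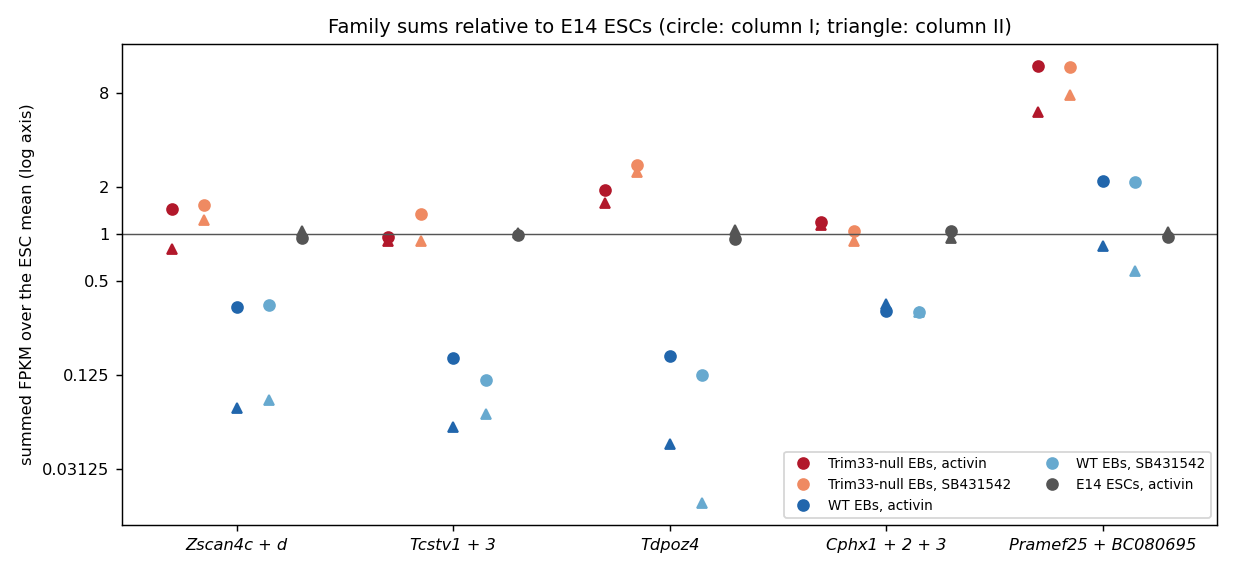
Summed FPKM of each family in every library, divided by the mean of the 2 ESC libraries (log axis); circles are column I and triangles column II. Trim33-null EBs (red, orange) lie near the line at 1 for Zscan4, Tcstv and Cphx, above it for Tdpoz4 and furthest above it for Pramef25 with BC080695, and WT EBs (blue) lie under it, except on both sides of it for Pramef25 with BC080695.

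Other genes of the PRAME family differed among themselves. Of 8 tested, 3 were called higher in Trim33-null EBs under SB431542: Gm13119 (Pramel31 in RefSeq), Gm16513 and AA792892, at 1.12 ± 0.25, 0.86 ± 0.13 and 1.40 ± 0.15 (SE; limma adjusted p = 0.0473, 0.016 and 0.0106). All 3 reached 1 FPKM in no WT EB library and were tested only because of their level in Trim33-null EBs, and 19 further genes of the list in the table were not tested. Over all genes 4.08% were called higher. AA792892 had 2.19 and 2.23 FPKM in Trim33-null EBs and 0.316 and 0.126 FPKM in WT EBs under SB431542, and was listed at 0 in both ESC libraries. Gm13078 (Pramel24) was at 10.4 times the ESC level in Trim33-null EBs under activin without passing the test under SB431542 (0.70 ± 0.21, adjusted p = 0.0942). Pramel4, Gm13102 and Pramef8 had log2 differences of -0.04, -0.03 and 0.19 and were not called, and Pramef12, at 0.42 ± 0.35, was not called either. Beside Pramef25 itself in the RefSeq order, Gm13040, Gm13057 and Gm13101 were called higher, at 2.24, 2.24 and 1.04. The 3 other neighbours, Gm13078, Pramel4 and Gm13102, were not, and are among the 8 genes above. All were named by position, and Gm13101 reached 1 FPKM in no WT EB library. Gm13040 and Gm13057 stood at near-equal levels and may share reads. Gm13040 had 11.3 and 7.42 FPKM in Trim33-null EBs and 2.01 and 0.531 FPKM in WT EBs under SB431542, and 0.546 and 0.711 FPKM in ESCs.

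Among the wider 2-cell-like genes, 15 of 22 tested rose in Trim33-null EBs under SB431542 and 0 fell, where 4.08% of all genes rose. The median log2 difference of the 22 was 1.16, with a range of 0.08 to 3.22. Of the 15, 12 reached 1 FPKM in no WT EB library and passed the filter only through their Trim33-null libraries, and 14 of the 36 genes of this list in the table were not tested, so these figures describe the genes that passed. The Usp17l genes Usp17la to Usp17le were all among them, at 0.83 to 1.43, as were B020031M17Rik (1.81 ± 0.18, limma adjusted p = 0.0097) and Gm7682 (1.84 ± 0.36, adjusted p = 0.0332). Gm4340 and Gm6763, named after their values were seen, had the largest differences, 3.22 ± 0.74 and 3.19 ± 0.74, and were not called (adjusted p = 0.0513 and 0.0517); they are near-identical in level and may share reads. Many genes of this list are named from the same state as the members, so the list is not independent of them.

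**Figure D5:**
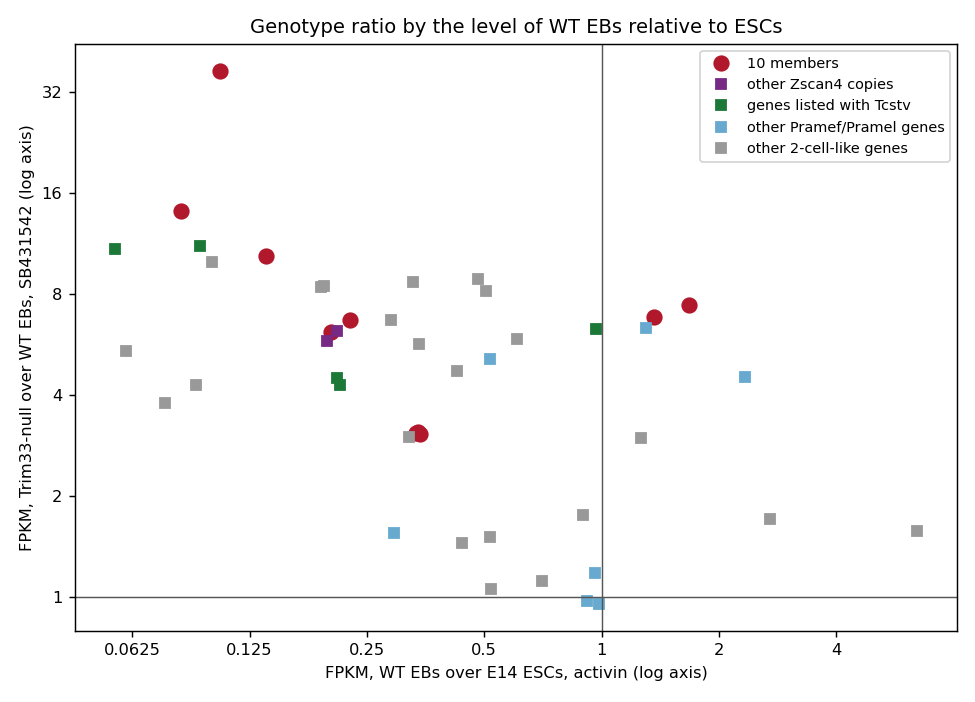
Each point is a gene, with the ratio of mean FPKM in WT EBs to E14 ESCs under activin on the horizontal log axis and the ratio in Trim33-null to WT EBs under SB431542 on the vertical log axis; AA792892, listed at 0 in ESCs, is left out. Most members (red circles) lie upper left, low in WT EBs against ESCs and high in Trim33-null EBs, while Pramef25 and BC080695 lie upper right with a few other PRAME genes.

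Of the known activators of the state, 3 of 7 tested rose in Trim33-null EBs under SB431542, against 4.08% of all genes. Nelfa, Smarca5, Yap1 and Trp53 were not called, with log2 differences of -0.09, -0.31, -0.26 and 0.08. Tbx3 is on the naive pluripotency list as well, so the counts of the lists are not separate. Dppa2 had 33.8 and 28.5 FPKM in Trim33-null EBs and 13.2 and 13.7 FPKM in WT EBs (1.15 ± 0.11, limma adjusted p = 0.00911). Dppa4, its partner, had 40 and 32.9 FPKM in Trim33-null EBs and 19.7 and 21.8 FPKM in WT EBs (0.78 ± 0.13, adjusted p = 0.021). Tbx3, a T-box factor of naive ESCs, had 2.69 and 3.04 FPKM in Trim33-null EBs and 0.589 and 0.651 FPKM in WT EBs (1.25 ± 0.09, adjusted p = 0.00443). Unlike the Zscan4 genes, these 3 did not differ much between the WT columns.

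Of 36 known repressors of the state, 1 rose and 1 fell in Trim33-null EBs under SB431542, with a median of -0.14. Over all genes 8.08% were called in either direction, so the count is not particular to the list. The one that fell was Trim33 itself (-1.74 ± 0.10, limma adjusted p = 0.00304), the gene by which the genotypes are defined. The one that rose was its paralog Trim24, with 11.6 and 11.9 FPKM in Trim33-null EBs and 9.53 and 9.23 FPKM in WT EBs (0.30 ± 0.06, limma adjusted p = 0.0446).

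The 5 genes outside the members whose log2(FPKM + 1) over the 8 EB libraries was most like the members' mean were BB287469, Gm4027, Gm5662, Gm8332 and Gm4781, with Pearson r of 0.999, 0.998, 0.997, 0.997 and 0.997. This is a description: the libraries span both genotypes and differ in depth, and the members were chosen by the difference between the genotypes. BB287469 had 4.98 and 4.23 FPKM in Trim33-null EBs, 1.27 and 0.78 FPKM in WT EBs under SB431542, and 4.64 and 5.73 FPKM in ESCs. Gm4781, by contrast, had 1.32 FPKM in both ESC libraries, under its 3.03 and 2.42 FPKM in Trim33-null EBs under SB431542. Between the families themselves, r over the 8 libraries ran from 0.878 for Zscan4 with Cphx to 0.985 for Tcstv with Tdpoz4. High values are built in by that choice of members.

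Markers of other cell types were followed beside these values. Of 15 oocyte markers, 12 were under 0.2 FPKM in every EB library and the others were Zp3, Ooep and Tle6; Gdf9, Bmp15 and Nobox were among those near 0. The list summed to 5.99 to 12.7 FPKM in Trim33-null EBs and 5.83 to 6.47 FPKM in WT EBs under SB431542. Of 4 oocyte genes tested, Kit included, limma called 0 in Trim33-null against WT EBs under SB431542, and 0 had an unadjusted p under 0.05. Over all genes, as background for this and the lists that follow, 4.08% were called higher and 8.08% in either direction. An unadjusted p under 0.05 was reached by 28.1% of all genes. Naive pluripotency genes moved with the members: 6 of 13 rose in Trim33-null EBs under SB431542, with a median log2 difference of 0.93. Their summed level was 163 to 184 FPKM in Trim33-null EBs and 99.4 to 107 FPKM in WT EBs under SB431542, and 181 to 235 FPKM in Trim33-null EBs, 137 to 188 FPKM in WT EBs and 606 to 616 FPKM in ESCs under activin. Under activin the sums of the 2 genotypes thus overlapped. Nanog, the highest gene of the list there, had 105 and 76 FPKM in Trim33-null EBs and 112 and 84.1 FPKM in WT EBs. Of the 13 genes, 12 had a positive log2 difference between Trim33-null and WT EBs under activin, with a median of 0.79. Unlike the Zscan4, Tcstv and Cphx sums, the naive sum of Trim33-null EBs stayed far under the ESC level. The part of residual ESC-like cells in the members' levels was not tested. Of 7 tested germline genes 2 rose in Trim33-null EBs under SB431542, Tex19.1 (1.72 ± 0.19, limma adjusted p = 0.0107) and Mael (0.60 ± 0.12, adjusted p = 0.0397). The germline list without Tex19.1 and Rhox5 summed to 15.6 to 16.8 FPKM in Trim33-null EBs and 12.6 to 12.7 FPKM in WT EBs. Of 5 tested trophoblast genes Ascl2 rose (0.81 ± 0.08, limma adjusted p = 0.00911), tested only because of its level in Trim33-null EBs. The trophoblast list without Eomes, most of it Krt8 and Krt18, summed to 57.1 to 93.8 FPKM in Trim33-null EBs and 36.1 to 48.6 FPKM in WT EBs under SB431542, while Cdx2 and Elf5 stayed under 1 FPKM. Eomes, left out of that sum, lay the other way. It had 2.03 and 0.896 FPKM in Trim33-null EBs and 9.36 and 4.97 FPKM in WT EBs under SB431542. Its log2 difference was -1.72 ± 0.44 (SE) and was not called (limma, adjusted p = 0.0665). Extraembryonic endoderm markers summed to 4.45 to 4.73 FPKM in Trim33-null EBs and 2.94 to 3.11 FPKM in WT EBs under SB431542. Under activin their sums overlapped, at 3.61 to 5.49 FPKM in Trim33-null EBs and 4.27 to 5.81 FPKM in WT EBs. Foxa2, the 1 gene of this list that was tested, had a log2 difference of -0.22 ± 0.40 under SB431542 (limma, adjusted p = 0.74). The part of these cell types in the members' levels was not tested. Eif2s3y, a Y-linked gene named after its values were seen, also fell in Trim33-null EBs under SB431542 (-3.17 ± 0.14, limma adjusted p = 0.000806), so the lines of the 2 genotypes differ in more than Trim33, and the part of this in the results was not tested.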

How the data were processed

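The deposited values are FPKM per gene and library, made by the authors. Per the submitters' processing notes, mm9 was the build and the tools included STAR 2.4.0, Cufflinks 2.2.1, Bowtie2 2.2.2 and CASAVA 1.8. Annotation and strandedness are not given there. The 10 members were read by symbol, and of 29145 entries the 113 repeats with a lower mean were left out.

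Values were tested as log2(FPKM + 1) with limma 3.58.1 in R 4.3.3, with an intensity trend, over genes at 1 FPKM or more in at least 2 libraries of the fit, with Benjamini-Hochberg adjustment over all of them and a threshold of 0.05. The 8 EB libraries were fitted together. The difference in activin response was fitted too, and is given for the members as a description. The smallest two-sided p of an exact permutation of 2 against 2 libraries is 0.333, so calls use the spread pooled over groups and genes. The fit was tested on simulated data.

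The members and gene lists were chosen with earlier results of these data known. Named genes are the 10 members, tested relatives of their families, genes of the wider, activator and repressor lists called under SB431542, and the 5 genes most like the members; any other gene is said to be named otherwise. Column numerals could not be matched to title numbers. Promoters are from RefSeq (GRCm38.p6). Another pseudocount, scaling, filter, sample set, block and each library left out were tried.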

Additional observations from a re-analysis of the deposited data

How the results depend on the processing

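In the genotype comparison under SB431542, 8 members were called. Fitting the 4 libraries of that comparison alone left 5. With 1 of the 8 EB libraries left out the count ran from 0 to 8, and with both WT libraries of column I, or both of column II, left out (alternatives chosen after seeing the data) it was 0 each time. A pseudocount of 0.1 gave 7, no filter 6, and another scaling or summed repeats 8. Adding the column numeral as a replicate block within each genotype gave 10, and over all genes the calls were 5173 against 914 without the block. The labels do not say what a numeral is; the difference of I and II correlated across treatments at 0.909 in Trim33-null and 0.459 in WT EBs over 11317 genes, with 2 pairs per genotype, too few to settle a pairing. In the comparisons of activin with SB431542 within each genotype, 0 members were called in every alternative run, the block included.

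With a pseudocount of 0.1 the members' median difference became 2.49, against 1.21, for Trim33-null against WT EBs under activin, and -1.84, against -0.98, for WT EBs against ESCs. For Trim33-null EBs against ESCs it became 0.22, against 0.17. With a pseudocount of 1 and 1 library left out, this last difference ran from 0.13 to 0.33. With 1 library left out, the ratio of Trim33-null to WT EBs ran from 3.27 to 14.6 under activin and 3.95 to 16.1 under SB431542 for Zscan4, from 5.81 to 16.1 under activin for Tcstv, from 10.6 to 39 and 21.3 to 140 for Tdpoz4, and from 3.99 to 10.7 and 4.56 to 16.8 for Pramef25 with BC080695, the highest each time without the WT library of column I.

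Under SB431542, 3 PRAME genes changed sign without being called: with 1 library left out Pramef12 ran from -0.00 to 0.84, Pramel4 from -0.18 to 0.10 and Gm13102 from -0.17 to 0.12, and without both WT libraries of column I Pramel4 was at 0.04 and Gm13102 at 0.07. The cause was not tested.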
